A study of Rattus norvegicus with 35 samples.

Results

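The genes described here are 9 matrix proteases, their inhibitors and a protease receptor of the rat heart: the gelatinases Mmp2 and Mmp9, the membrane-type metalloproteinase Mmp14, the tissue inhibitors of metalloproteinases Timp1, Timp2 and Timp3, the plasminogen activators Plau (urokinase) and Plat (tissue type), and Plaur, the urokinase receptor. Members were all probe-sets of the RG-U34A array whose annotation holds 1 of these symbols and no other, which gave 11 of the 8740 probe-sets tested and 9 of the 4736 genes with a single symbol. Mmp2 and Timp1 have 2 probe-sets each, and the brighter one leads the account of each gene. The rule itself uses symbols and no measured value.

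Cells came from ventricles of neonatal rat hearts and were studied as a CM population, enriched for cardiac myocytes (CM), or as cultures of fibroblasts (FB). Mechanical stress (MS) was 24 h of cyclic stretch on plates coated with collagen I, ionising radiation (IR) was 8.5 Gy of X-rays given once, and UV was 10 J/m2 of UVC, and irradiated cells were collected 24 h after exposure. Controls of MS were grown on the same kind of plates without stretch, and controls of IR and UV were sham-treated. The 35 arrays fall into 12 groups of 3, except for the UV controls of the CM population, which number 2. UV-treated CM array 3 has no control and enters no pair. For IR and UV the CM population was further enriched by centrifugal elutriation after the treatment and is called CM-enriched fractions, whereas for MS it consisted of CM-enriched cultures that had not been elutriated and still held many non-myocytes. No genotype or strain is given, and fibroblasts had been subcultured before treatment, which the CM population had not. Fibroblasts were subcultured in foetal bovine serum and treated after a longer time in culture, whereas the CM population was kept in horse serum. Fibroblasts were not elutriated. Between the populations these conditions and the cell type cannot be told apart.

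Metalloproteinases are secreted or membrane-bound enzymes that cleave collagens and other matrix proteins and are made as inactive proforms. Mmp14 together with Timp2 activates pro-Mmp2 at the cell surface, and the Timps bind the active enzymes. Urokinase, held at the cell surface by Plaur, and tissue-type activator turn plasminogen into plasmin, which degrades fibrin and can activate metalloproteinase proforms. In the heart these systems take part in the remodelling of the extracellular matrix after overload and injury, with fibroblasts as a main source of several of them.

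The population labels were compared with marker genes. All 13 cardiomyocyte markers measured were higher in CM controls than in fibroblast controls over the 3 stressors, and 10 of 11 fibroblast markers were lower (limma, adjusted p). By single stressor, 10 of the 13 cardiomyocyte markers were called higher in MS, 13 in IR and 5 in UV. Of the 11 fibroblast markers, 3 were called lower and 2 higher in MS, whereas 10 were lower in IR and 11 in UV. Summed over the list, the fibroblast markers reached 48536 to 51640 in CM controls of MS, 21302 to 31077 in those of IR and 14219 to 23993 in those of UV, against 59429 to 67322 in all fibroblast controls. The cardiomyocyte markers were not absent from fibroblasts, with sums of 6366 to 40385 in their controls against 57325 to 98142 in CM controls. Rank correlations between arrays of a group were 0.922 to 0.979. The number of arrays limits the precision. Pair 3 of the fibroblasts of IR stands apart from the other 2 pairs and is given separately below. Pair 2 of the fibroblasts of MS had the highest cardiomyocyte sums of that population, 40385 in the control and 42342 after stretch. Pairs 1 and 3 of MS had 14500 and 6366 in controls and 13780 and 5680 after stretch. Where scan records exist, CM and fibroblast arrays were never in the same scan, so population and scan cannot be told apart.

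Plaur and Timp1 had the largest called rises of the members over the 6 comparisons of treated with control, both in fibroblasts after UV, and their promoter sequences are therefore shown. The windows run from 250 bases before to 50 bases after a transcription start (RefSeq, build GRCr8), and that of Timp1 lies inside the annotated span of the gene. Capitals mark matches, on either strand, to the AP-1 element TGANTCA, to its variant TGANTAA and to the Ets element AGGAAG, none of which overlap in these windows; the variant was added after the Timp1 sequence had been read.

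Timp1, chrX:3771073-3771372, minus strand: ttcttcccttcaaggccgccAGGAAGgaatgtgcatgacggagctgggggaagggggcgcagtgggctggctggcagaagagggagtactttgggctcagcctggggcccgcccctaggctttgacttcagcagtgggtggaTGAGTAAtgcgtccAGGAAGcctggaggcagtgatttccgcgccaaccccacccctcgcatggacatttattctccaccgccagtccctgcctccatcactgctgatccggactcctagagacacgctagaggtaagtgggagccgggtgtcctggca
Plaur, chr1:89181113-89181412, plus strand: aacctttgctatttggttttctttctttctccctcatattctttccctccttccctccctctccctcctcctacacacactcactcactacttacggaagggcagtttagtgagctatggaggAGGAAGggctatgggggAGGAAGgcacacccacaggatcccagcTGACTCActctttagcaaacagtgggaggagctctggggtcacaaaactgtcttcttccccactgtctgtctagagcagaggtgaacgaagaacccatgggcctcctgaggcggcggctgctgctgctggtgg

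In the Timp1 window the variant element starts 108 bases before the transcription start and an Ets element 94 bases before it, with another Ets element at 230 bases. The Plaur window holds an AP-1 element at 83 bases and Ets elements at 110 and 127 bases before the start. Of all 33469 promoter windows, 7.33% hold TGANTCA, 10.7% TGANTAA and 34.5% AGGAAG. Windows were given for 5 members, and those of Timp2, Timp3 and Plau held no match to these 3 elements. A match is a description of the letters and not a binding site.

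The levels of the 9 genes in untreated cells differed between the populations, and the members fell into those with the higher level in fibroblasts and those with the higher level in the CM population. Mmp2, Mmp14, Timp2 and Plat were lower in the CM population over the 3 stressors, and Mmp9, Timp1 (brighter probe-set), Timp3, Plau and Plaur were higher. Of the 11 probe-sets 9 passed the threshold of adjusted p 0.05, 5 higher and 4 lower, while of all probe-sets 38.8% passed, 17.9% higher and 21% lower. The 11 probe-sets had a median difference of 0.37 on the log2 scale, beside 0 over all probe-sets. In bulk samples, fewer cells of a type and less RNA per cell cannot be told apart.

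**Figure D1:**
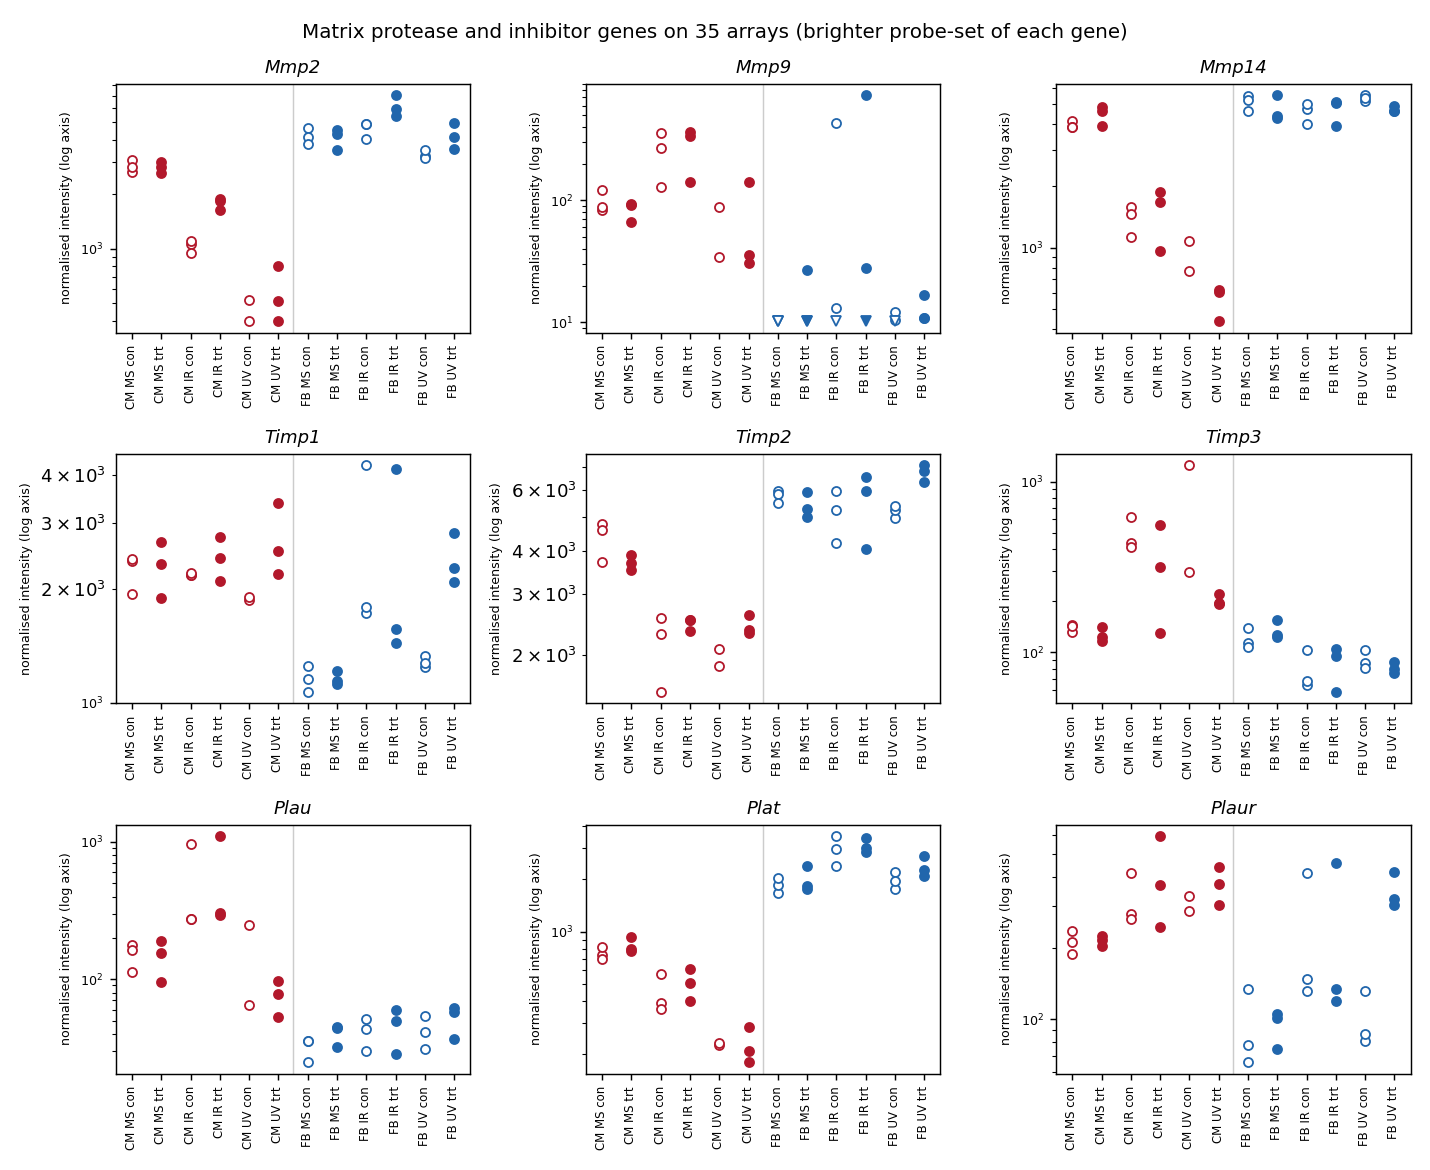
Normalised intensity (log axis) of the brighter probe-set of each gene on every array, by group. Red marks the CM population and blue fibroblasts, open symbols are controls (con) and filled symbols treated arrays (trt), and triangles are values at the floor. Controls of Mmp2, Mmp14, Timp2 and Plat lie higher in fibroblasts for each stressor, and Plaur rises in fibroblasts after UV from 80.9 to 132 in controls to 304 to 418.

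Mmp2, which cleaves denatured collagen and collagen IV, had normalised intensities of 2667, 3082 and 2827 in CM controls of MS, 1059, 944 and 1101 in those of IR, and 402 and 522 in those of UV. In fibroblast controls it stood at 4662, 4155 and 3799 for MS, 4025, 4910 and 4859 for IR, and 3235, 3155 and 3514 for UV. Every fibroblast control was thus above every CM control. The CM level was 1.47-fold lower in MS (log2 difference -0.55, SE 0.12, adjusted p = 0.00557), 4.44-fold lower in IR (adjusted p = 5.80e-07) and 7.19-fold lower in UV (adjusted p = 1.65e-07). The MS difference no longer passed without quantile normalization (-0.33, adjusted p = 0.0562). The other probe-set of Mmp2 was dim, at 13.9 to 71.5 on all 35 arrays, was called in no comparison and correlated with the brighter one at r = -0.48 over the arrays, so the account of Mmp2 rests on 1 probe-set.

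Mmp14, the membrane-bound activator of Mmp2, also read lower in the CM controls than in the fibroblast controls of the same stressor. It measured 4125, 3884 and 3874 in CM controls of MS, 1578, 1467 and 1124 in those of IR and 769 and 1081 in those of UV, and 3999 to 5558 in the 9 fibroblast controls. Across stressors the populations overlapped, as CM control 1 of MS (4125) lay above fibroblast control 3 of IR (3999). The CM controls of MS lay just below all fibroblast controls of MS without passing (log2 difference -0.37, SE 0.14, adjusted p = 0.0885), whereas the fractions were lower by 3.33-fold in IR (adjusted p = 7.52e-06) and 5.89-fold in UV (adjusted p = 1.19e-06). Over the 12 group means the Mmp14 pattern was most like that of the collagen genes Col3a1 (r = 0.991) and Col1a1 (r = 0.990), and the Mmp2 pattern was most like that of Fcgrt (r = 0.975), Ggcx (r = 0.966) and Dcn (r = 0.965). These correlations rest on 12 points that share the populations, and no p is given.

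Plat, the tissue-type plasminogen activator, was lower in all 3 sets of CM controls. Its level was 733, 692 and 818 in CM controls of MS against 1664, 1849 and 2011 in fibroblasts, 571, 390 and 363 against 2378, 2957 and 3514 in IR, and 226 and 231 against 2186, 1759 and 1943 in UV. No CM control reached a fibroblast control. The CM level was 2.46-fold lower in MS (adjusted p = 0.000386), 6.74-fold lower in IR (adjusted p = 1.34e-06) and 8.56-fold lower in UV (adjusted p = 1.10e-06). Its pattern over the 12 group means was most like that of Lox (r = 0.989), a cross-linker of collagen, which is also among the fibroblast markers used here.

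Timp2, the inhibitor that takes part in Mmp2 activation, measured 3725, 4790 and 4598 in CM controls of MS, 1566, 2297 and 2554 in those of IR, and 2076 and 1862 in those of UV. The 9 fibroblast controls lay between 4203 and 5971. The fractions were lower by 2.43-fold in IR (adjusted p = 0.000207) and 2.65-fold in UV (adjusted p = 0.000304). The cultures of MS did not pass (log2 difference -0.41, SE 0.17, adjusted p = 0.113), although the groups did not overlap. The summed fibroblast markers were lower beside Mmp2, Mmp14, Plat and Timp2, by the values given above, and their part in these differences was not tested.

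**Figure D2:**
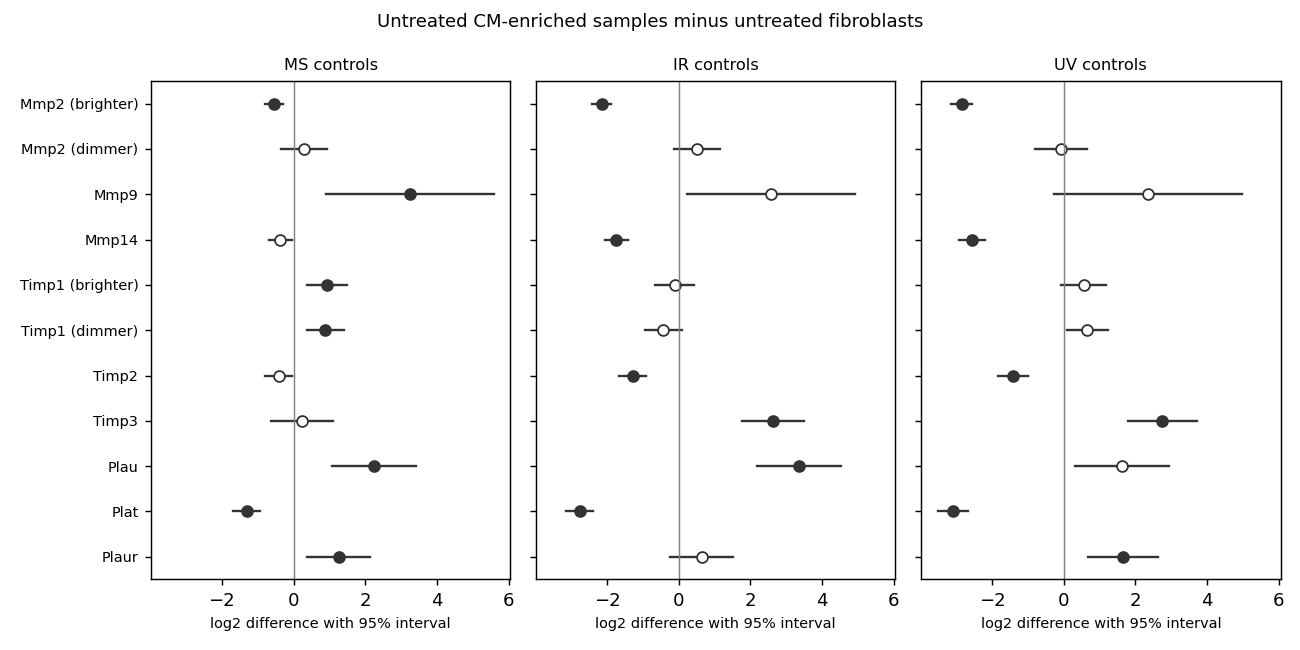
Log2 difference between untreated CM-enriched samples and untreated fibroblasts in the MS, IR and UV experiments, with its 95% interval, for the 11 probe-sets. Filled circles passed an adjusted p of 0.05. Mmp2 stands at -0.55, -2.15 and -2.85, and Plau at 2.24, 3.36 and 1.62.

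Among the members with the higher level in the CM population, Mmp9 had the largest log2 difference over the 3 stressors (2.72), followed by Plau (2.41) and Timp3 (1.87). Plau, the urokinase gene, measured 113, 179 and 162 in CM controls of MS, 968, 275 and 273 in those of IR and 247 and 64.9 in those of UV, and only 24.9 to 54.2 in the 9 fibroblast controls. The groups did not overlap in any experiment, and the CM level was 4.72-fold higher in MS (adjusted p = 0.0113) and 10.3-fold higher in IR (adjusted p = 0.000670), whereas UV did not pass (3.07-fold, adjusted p = 0.0783). In UV the difference passed without CM control 2 (log2 difference 2.58, adjusted p = 0.0177). CM control 1 of IR and CM control 1 of UV had the higher Plau level in their groups.

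The endothelial markers were highest on the same CM control as Plau in IR and in UV, but not in MS. Their sum over 8 genes was 3341 on CM control 1 of IR against 1277 and 1310 on controls 2 and 3, and 1117 on CM control 1 of UV against 427 on control 2, while fibroblast controls had 346 to 721. On CM controls 1 to 3 of MS the sums were 633, 832 and 966, beside Plau levels of 113, 179 and 162. On fibroblast controls 1 to 3 of IR they were 346, 579 and 721, beside Plau levels of 43.6, 51.0 and 29.9. Of the list, 4 genes were higher in CM controls over the 3 stressors and 1 lower, and no endothelial marker was at the floor on all arrays of a CM group. The pattern of Plau over the 12 group means was most like those of Cxcr4 (r = 0.974) and Pecam1 (r = 0.965), of which Pecam1 is an endothelial marker of that list. Their part in the Plau difference was not tested.

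Timp3, an inhibitor that binds to the matrix, measured 434, 619 and 413 in CM controls of IR and 295 and 1242 in those of UV, against 64.4 to 103 in the fibroblast controls of IR and UV. The fractions were 6.26-fold higher in IR (adjusted p = 0.000420) and 6.73-fold higher in UV (adjusted p = 0.000865). Without CM control 2 of UV the log2 difference in UV was 1.71 and without control 1 it was 3.79. In MS, where the CM cultures had not been elutriated, the CM controls stood at 132, 145 and 143 and the fibroblast controls at 113, 108 and 139, with overlap and no call (adjusted p = 0.780). The most similar patterns were those of Stc1 (r = 0.954), Slc25a26 (r = 0.954) and Uaca (r = 0.951).

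Mmp9, the other gelatinase, was at the floor of the scale (normalised intensity 10.2) on 8 arrays, all of fibroblasts. It measured 83.9, 123 and 88.9 in CM controls of MS, where all 3 fibroblast controls were at the floor. The CM level was 9.51-fold above the floor (log2 difference 3.25, limma adjusted p = 0.0482). This size depends on the floor chosen. With a floor at the 40th percentile the difference was 1.42 and did not pass (adjusted p = 0.272). The MS call held in 4 of 13 alternatives. In UV the CM controls of 88.6 and 34.5 lay above fibroblast controls of 12.2, 10.4 and the floor, without a call (adjusted p = 0.206). In IR the CM controls read 357, 128 and 268, and the fibroblast controls the floor, 13.1 and 434. The call over the 3 stressors (log2 difference 2.72, SE 0.65, adjusted p = 0.00487) was lost with a floor at the 40th percentile (1.18, adjusted p = 0.0728). The patterns most like that of Mmp9 were those of Spp1 (r = 0.958), Lcn2 (r = 0.924) and Igf2 (r = 0.899).

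Plaur was higher in CM controls of UV, at 330 and 287 against 132, 80.9 and 86.4 in fibroblasts (log2 difference 1.66, SE 0.45, adjusted p = 0.0185), and of MS, at 236, 189 and 212 against 65.8, 77.9 and 134 (1.26, SE 0.40, adjusted p = 0.0410). In IR the levels of 416, 279 and 265 overlapped with 148, 131 and 414 in fibroblasts and did not pass (0.65, SE 0.40, adjusted p = 0.288). Timp1, the inducible inhibitor, was higher in CM controls of MS by both probe-sets, the brighter reading 1943, 2372 and 2398 against 1070, 1157 and 1249 (log2 difference 0.95, SE 0.26, adjusted p = 0.0201). It was not called in IR (-0.11) or UV (0.56). The call over the 3 stressors (0.46, adjusted p = 0.0309) held in 13 of 24 alternatives. It was lost with a replicate block across the populations (adjusted p = 0.0667) and without each of 9 single control arrays (0.0502 to 0.0652), and the dimmer probe-set did not pass (0.37, adjusted p = 0.0582). The MS calls of Timp1, Plaur and Mmp9 were lost without single control arrays (adjusted p up to 0.0703, 0.140 and 0.128), and so was the UV call of Plaur (up to 0.101).

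Fibroblast pair 3 of IR had levels of Mmp9, Timp1 and Plaur unlike those of the other pairs. Mmp9 read 434 on control 3 and 734 on treated array 3 and at most 28.0 on the other 4 fibroblast arrays of IR. Timp1 read 4247 and 4155 in pair 3, where the other 4 arrays had 1439 to 1797, and Plaur 414 and 454, where they had 119 to 148. All 3 genes were thus higher on both arrays of this experiment, treated and untreated. Without control 3, the CM controls of IR were higher than the fibroblast controls in Mmp9 (log2 difference 4.31, adjusted p = 4.77e-05), Plaur (1.17, adjusted p = 0.0150) and Timp1 (0.31, adjusted p = 0.0217, with the sign turned). On control 3 the macrophage and leukocyte markers summed to 701, beside 356 and 726 on controls 1 and 2, with Itgam and Cd74 at the floor on all 3. The endothelial markers summed to 721, beside 346 and 579.

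By experiment, 7 of the 11 probe-sets passed between the controls of MS, where 22.5% of all probe-sets did, 6 in IR, where 25.2% did, and 6 in UV, where 22.5% did.

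UV gave more calls among these genes than the other treatments, in both populations. In fibroblasts, Plaur, Timp1 (both probe-sets), Timp2 and the brighter probe-set of Mmp2 rose and no member fell: 5 of 11 probe-sets were called higher, while 22.9% of all probe-sets were called and 11.7% called higher. In the CM-enriched fractions the dimmer probe-set of Timp1 rose and Mmp14 and Timp3 fell, 3 of 11 probe-sets, while 16.8% of all probe-sets were called, 8.62% higher and 8.16% lower. The median change of the 11 probe-sets was 0.30 in fibroblasts and 0.12 in the fractions, beside 0 over all probe-sets in each.

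**Figure D3:**
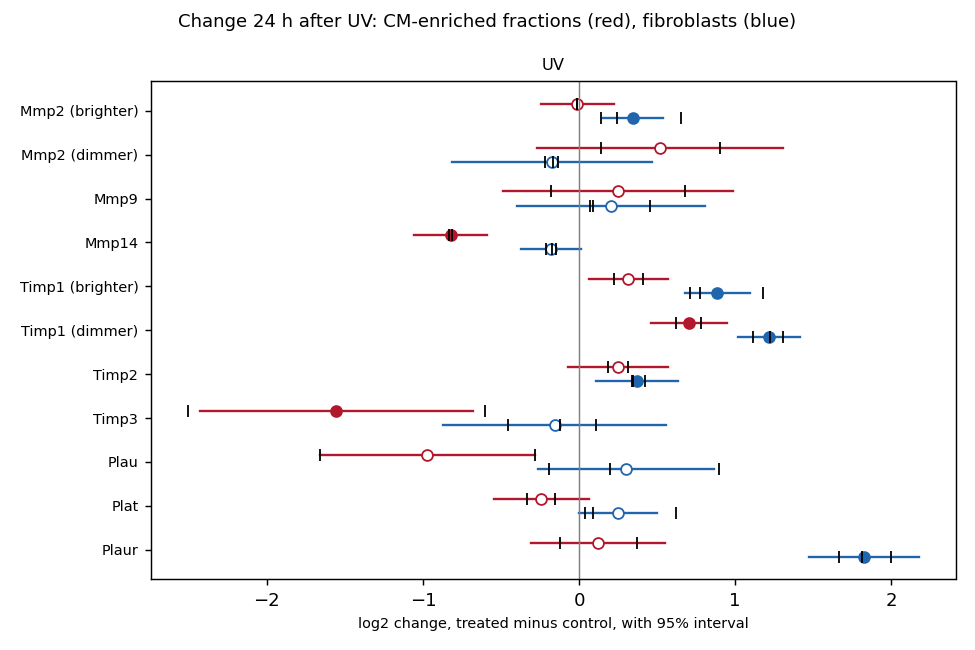
Log2 change of the 11 probe-sets 24 h after UV with its 95% interval, CM-enriched fractions in red and fibroblasts in blue; ticks are the numbered pairs and filled circles passed an adjusted p of 0.05. Plaur changed by 1.83 in fibroblasts and 0.12 in the fractions, and Mmp14 by -0.18 and -0.82.

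Plaur, the receptor that focuses urokinase at the cell surface, rose in fibroblasts from 132, 80.9 and 86.4 to 418, 323 and 304 after UV. The groups did not overlap, and the rise was seen in 3 of 3 pairs (log2 changes 1.67, 2.00 and 1.81). The fitted change was 1.83 (SE 0.16, 3.55-fold, limma adjusted p = 4.68e-06), and it was called in all 11 alternatives tried. In the CM-enriched fractions Plaur read 330 and 287 in controls and 303, 371 and 440 after UV, with overlapping groups and a change of 0.12 (SE 0.20, 95% interval -0.31 to 0.55, adjusted p = 0.823). After UV the fibroblast level thus lay in the range of the fractions.

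Timp1 rose in fibroblasts after UV from 1334, 1246 and 1275 to 2277, 2819 and 2087 by the brighter probe-set, and from 1015, 808 and 746 to 2197, 2001 and 1740 by the dimmer one. Neither probe-set had overlapping groups, and both rose in 3 of 3 pairs. The changes were 0.89 (SE 0.10, adjusted p = 2.28e-05) and 1.21 (SE 0.09, adjusted p = 1.33e-06), or 1.85-fold and 2.32-fold. In the fractions the brighter probe-set went from 1871 and 1904 to 2186, 2525 and 3384 without passing (0.32, SE 0.12, adjusted p = 0.0867), and the dimmer one from 1366 and 1322 to 2351, 2035 and 2554 (0.70, SE 0.11, adjusted p = 0.00106). The groups of both probe-sets were apart there too, but the call was lost without the replicate block (0.78, adjusted p = 0.133). The probe-sets derive from the same transcript entry and correlated at r = 0.944 over 35 arrays. Sod2, a mitochondrial superoxide dismutase, had the pattern most like that of Timp1 over the 12 group means (r = 0.951), followed by Pgam1 (r = 0.917) and Plaur itself (r = 0.901).

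Mmp14 fell in the fractions after UV, from 769 and 1081 to 438, 606 and 622, with no overlap and changes of -0.81 and -0.84 in the 2 pairs. The fitted change was -0.82 (SE 0.11, 1.77-fold lower, adjusted p = 0.000276). In fibroblasts it went from 5558, 5173 and 5381 to 4931, 4662 and 4644, again with no overlap, but without passing (-0.18, SE 0.09, adjusted p = 0.193), unless quantile normalization was left out (-0.35, adjusted p = 0.0184). Beside Mmp14, 5 of 11 fibroblast markers fell in the fractions, among them Col1a1 (-0.81), Col3a1 (-0.81) and Col1a2 (-1.45), and the summed markers went from 14219 and 23993 to 9531, 12377 and 17166. Their part in the Mmp14 change was not tested.

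Mmp2 rose in fibroblasts after UV, from 3235, 3155 and 3514 to 3566, 4952 and 4155. The groups did not overlap, yet the treated array nearest to the controls exceeded the highest control only slightly. The change was 0.34 (SE 0.09, adjusted p = 0.0126), with 0.14, 0.65 and 0.24 in the pairs, and it was lost without fibroblast replicate 2 of UV (0.19, adjusted p = 0.139) and without the replicate block (adjusted p = 0.233). Timp2 rose in fibroblasts from 4969, 5264 and 5402 to 6322, 7063 and 6820, by 0.35, 0.42 and 0.34 in the pairs, which gave 0.37 (SE 0.12, adjusted p = 0.0447). This call was lost when any 1 of the 3 pairs was left out (adjusted p 0.122 to 0.178), without the replicate block (adjusted p = 0.138), and without quantile normalization (0.24, adjusted p = 0.272). In the fractions Timp2 changed by 0.25 without passing (adjusted p = 0.313). Mmp2 read 402 and 522 in controls of the fractions and 399, 518 and 805 after UV, a change of -0.01 (95% interval -0.25 to 0.22).

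Timp3 fell in the fractions after UV, from 295 and 1242 to 194, 218 and 192. The treated arrays lay close together and below both controls, while the controls differed from each other. The pairs gave -0.60 and -2.51 and the fit -1.56 (SE 0.40, 2.94-fold lower, adjusted p = 0.0194). The call rests on pair 2: without it the change was -0.60 (adjusted p = 0.479), and without pair 1 it was -2.51. Beside Timp3, 4 of 13 cardiomyocyte markers and 3 of 6 smooth muscle markers fell in the fractions, with cardiomyocyte sums of 93790 to 98142 in controls and 72939 to 80801 after UV and smooth muscle sums of 12223 to 16306 and 10242 to 11828. The 2 controls were deposited on different intensity scales. The part of the markers and of the scale was not tested. In fibroblasts Timp3 stood at 86.8, 103 and 81.1 in controls and 79.7, 75.3 and 87.4 after UV (-0.16, adjusted p = 0.886).

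Plau behaved unevenly in the fractions, with 247 and 64.9 in controls and 78.0, 53.5 and 97.2 after UV. The groups overlapped and the change of -0.97 (SE 0.32) did not pass (adjusted p = 0.0548), but it passed without pair 2 (-1.66, adjusted p = 0.0121) and under 4 other settings (adjusted p 0.0281 to 0.0391). The endothelial markers summed to 1117 and 427 on these controls and to 409, 455 and 492 on the treated arrays, so that the control with the high Plau level also had the high endothelial sum, whose part was not tested. In fibroblasts Plau changed by 0.30 (adjusted p = 0.516). Plat changed by -0.24 in the fractions (adjusted p = 0.300) and 0.25 in fibroblasts (adjusted p = 0.157), and Mmp9 by 0.25 (adjusted p = 0.762) and 0.20 (adjusted p = 0.744), without a call.

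In fibroblasts after UV, 11 of 13 cardiomyocyte markers, 5 of 6 smooth muscle markers and 4 of 11 fibroblast markers fell, and 2 of 7 macrophage and leukocyte markers rose. The cardiomyocyte markers summed to 30565 to 36080 in controls and 12922 to 18171 after UV, and the fibroblast markers to 61144 to 66592 and 48066 to 56712. The macrophage and leukocyte markers summed to 317 to 379 in controls and to 465 to 534 after UV, without overlap. The part of these lists in the rises of Plaur, Timp1, Timp2 and Mmp2 was not tested.

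The difference between the populations in their response to UV was tested directly. It passed for 3 of 11 probe-sets, all with the lower change in the fractions, while 6.35% of all probe-sets passed and 2.72% in this direction. Plaur differed by -1.70 (SE 0.25, adjusted p = 0.00239), Mmp14 by -0.65 (SE 0.14, adjusted p = 0.0175) and the brighter probe-set of Timp1 by -0.57 (SE 0.15, adjusted p = 0.0435). For the dimmer probe-set of Timp1 the difference was -0.51 and did not pass (adjusted p = 0.0579), nor did that of Plau (-1.27, adjusted p = 0.0952), Timp3 (-1.40, adjusted p = 0.152) or Mmp2 (-0.36, adjusted p = 0.174). None of the 3 calls held without the replicate block, where the adjusted p was 0.339, 0.498 and 0.858, or with pairs as a random block. Without CM pair 1 or 2 of UV, Mmp14 had an adjusted p of 0.0788 and 0.0670, and Timp1 of 0.240 and 0.0683. Timp1 was also lost without fibroblast pair 1 (0.0575) or 2 (0.112). Conversely, the difference passed for Timp3 without CM pair 1 (-2.35, adjusted p = 0.0239) and for Plau without CM pair 2 (-1.96, adjusted p = 0.0170).

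After IR, Mmp2 was the member that rose in the CM-enriched fractions, 1 of 11 probe-sets, while 0.732% of all probe-sets were called and 0.286% called higher. It went from 1059, 944 and 1101 in controls to 1879, 1637 and 1835 after 8.5 Gy. The groups were well apart and the pairs gave 0.83, 0.79 and 0.74. The fitted change was 0.79 (SE 0.09, 1.72-fold, adjusted p = 0.00103), and it was called in 12 of 13 alternatives, the scan and the array lot as blocks included. The exception was the fit on the 6 arrays of this comparison alone, which left few degrees of freedom (0.79, adjusted p = 0.507). The fibroblast markers summed to 21302, 31077 and 28002 in these controls and to 27772, 34165 and 28979 after IR, and none of the 11 was called, with a median change of 0.19. Treated array 3 was scanned apart from the other 5 arrays, so with the scan as a block the change rests on pairs 1 and 2. The 3 controls and treated array 2 shared an array lot, and treated arrays 1 and 3 were of another. With the lot as a block the change therefore rests on pair 2 alone, and lot and treatment cannot be told apart in the other pairs.

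In fibroblasts Mmp2 went from 4025, 4910 and 4859 to 5927, 7063 and 5381 after IR. The groups did not overlap and all 3 pairs were higher (0.56, 0.52 and 0.15), but the change of 0.41 (SE 0.09) did not pass (adjusted p = 0.162). Without pair 3, the pair with the smallest change, it passed (0.54, adjusted p = 0.0401). That pair was described above as unlike the others for Mmp9, Timp1 and Plaur, and not for Mmp2. In this comparison 0.0801% of all probe-sets were called and no member was. At an unadjusted p under 0.05 there were 3 of the 11, beside 599 of all 8740 probe-sets. The rise in the fractions was not shown to differ from that in fibroblasts (difference 0.38, 95% interval 0.10 to 0.65, adjusted p = 0.445). In that test 0.0686% of all probe-sets passed and no member did, with 3 members at an unadjusted p under 0.05, beside 757 of all 8740 probe-sets.

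**Figure D4:**
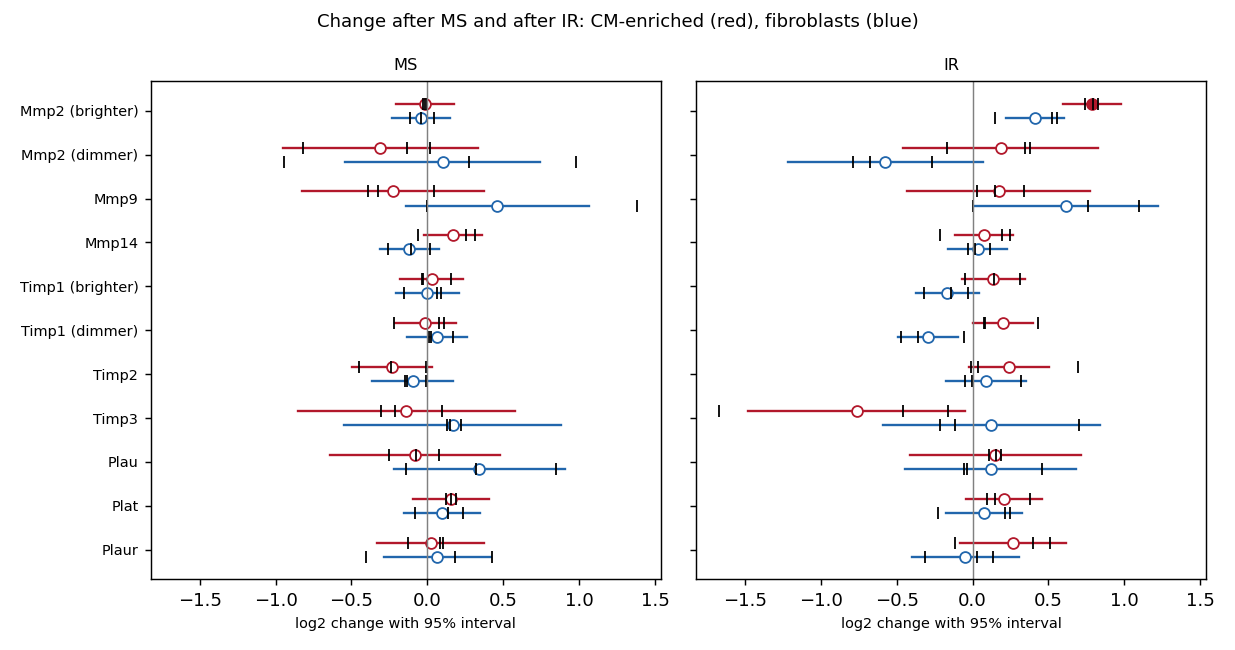
Log2 change of the 11 probe-sets after MS and after IR with its 95% interval, CM-enriched samples in red and fibroblasts in blue; ticks are the numbered pairs and filled circles passed an adjusted p of 0.05. Only Mmp2 after IR in the CM-enriched fractions is filled, at 0.79.

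The other members were not called after IR. Timp3 read 434, 619 and 413 in controls of the fractions and 315, 554 and 130 after IR, lower in 3 of 3 pairs (-0.46, -0.16 and -1.67) with overlapping groups, and the change of -0.76 did not pass (SE 0.33, adjusted p = 0.406). The dimmer probe-set of Timp1 was 0.20 higher in the fractions (adjusted p = 0.439) and 0.29 lower in fibroblasts (log2 change -0.29, adjusted p = 0.494), each in 3 of 3 pairs, and the difference of 0.49 between the populations did not pass (adjusted p = 0.356). Mmp14 changed by 0.08 (95% interval -0.12 to 0.27) in the fractions and 0.03 (-0.16 to 0.23) in fibroblasts. Plaur changed by 0.27 (-0.08 to 0.62) and -0.05 (-0.40 to 0.30), and Plat by 0.21 (-0.04 to 0.46) and 0.08 (-0.17 to 0.33). Plau was high on both arrays of CM pair 1, at 968 in the control and 1105 after IR. Pairs 2 and 3 read 275 and 273 in controls and 306 and 294 after IR, and the fitted change was 0.15 (SE 0.26).

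Cyclic stretch gave no call in these genes. No member passed in CM-enriched cultures or in fibroblasts, where 0% of all probe-sets passed in either population, and 0% in the difference between the populations. At an unadjusted p under 0.05 no member was found in either population, beside 414 and 468 of all 8740 probe-sets. In the difference 1 member was, Mmp14 (0.29, 95% interval 0.02 to 0.56, adjusted p = 1), beside 365 of all 8740 probe-sets. Mmp2 stood at 2667, 3082 and 2827 in unstretched and 2637, 3021 and 2819 in stretched CM-enriched cultures, a change of -0.02 (95% interval -0.21 to 0.18). Timp1 changed by 0.03 (-0.18 to 0.24) in these cultures and by 0.00 (-0.21 to 0.21) in fibroblasts. Mmp14 read 4125, 3884 and 3874 in unstretched and 3944, 4830 and 4630 in stretched CM-enriched cultures (0.17, -0.02 to 0.36). Timp2 read 3725, 4790 and 4598 in unstretched and 3696, 3514 and 3899 in stretched ones (-0.23, -0.50 to 0.03). The intervals of Mmp2 (brighter probe-set), Mmp14, Timp1, Timp2, Plat and Plaur in both populations lie within 0.50 of 0 on the log2 scale. Those of Mmp9, Timp3, Plau and the dimmer probe-set of Mmp2 reach further.

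The other genes of matrix proteolysis on the array, 31 in a fixed list, were read through the brightest probe-set of each. None was called after MS or IR in either population. After UV, 10 rose and 4 fell in fibroblasts and 2 rose and 4 fell in the fractions, with median changes of 0.04 and 0.00 over the list, beside 0 over all probe-sets. These are 14 and 6 of 31 genes, beside 22.9% and 16.8% of all probe-sets called. In fibroblasts the smallest adjusted p values belonged to Mmp16, another membrane-type metalloproteinase (-2.13, adjusted p = 4.37e-07), Serpine2, an inhibitor of plasminogen activators and thrombin (-2.54, adjusted p = 2.04e-05), S100a10, a plasminogen-binding partner of annexin A2 (0.46, adjusted p = 0.000267), and Cstb, a cathepsin inhibitor (0.52, adjusted p = 0.000593). The cathepsin genes Ctsb, Ctsk and Ctsl rose there too, by 0.44, 0.37 and 0.38. In the fractions they were F3, tissue factor (-1.55, adjusted p = 0.000593), Furin, a proprotein convertase that activates Mmp14 (-0.54, adjusted p = 0.00163), S100a10 (0.48, adjusted p = 0.00186) and Ctsl (0.49, adjusted p = 0.00198). The difference in response passed for 4 of the 31 genes, beside 6.35% of all probe-sets, higher in the fractions for Mmp16 (1.45) and Serpine2 (2.15) and lower for F2r (-0.73) and Furin (-0.57). Between the controls over the 3 stressors 6 of the 31 were higher in the CM population and 10 lower, beside 38.8% of all probe-sets called, led by Serpine2 (-3.54, adjusted p = 8.57e-09), Bsg, an inducer of metalloproteinases (0.57, adjusted p = 1.96e-06), Cstb (-0.64, adjusted p = 8.70e-06) and Furin (0.63, adjusted p = 3.12e-05). Plg, the substrate of both activators, was at the floor on all 35 arrays.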

How the data were processed

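RNA of 35 samples of neonatal rat cardiac cells was hybridised to RG-U34A arrays, 1 array a sample. The intensities deposited by the authors are linear, 1 for each of 8799 probe-sets and array. Which software made them is not given in the sources used here, and the gcrma and VSN steps that the methods describe are not part of them. Their mean after trimming 2% at each end was 200.3 to 200.4 on 26 arrays and 1001.5 to 1001.7 on 9, and no pair mixes these scales. The 9 are all CM arrays of IR and, of UV, CM control 2 and treated 2 and 3, so that scale and population cannot be told apart between the controls of IR, and the 2 UV controls of the fractions differ in scale. No per-sample column was left unused, and no arrays held identical values.

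Control probe-sets (59) were left out. Each array was brought to the same 75th percentile, lower values were replaced by the table's 20th percentile after scaling (10.2, called the floor), and log2 values were quantile normalized. On each array 14.5% to 24.7% of values were at the floor, and differences near it are understated. Of the 8740 probe-sets tested, 7006 have 1 symbol in the array annotation, 308 several and 1426 none, and 6985 were matched to RefSeq by gene number.

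All arrays were fitted with limma 3.58.1 (lmFit, and eBayes with trend; R version 4.3.3). The experiment number of each population and stressor was an additive block, after the experiment term of the model of the study, whose interaction of treatment and experiment was not fitted (11 residual degrees of freedom). These numbers were read from the sample titles, a title without a number being taken as 1. The pairs are thus inferred, as no label states which treated and control arrays belong together. The deviations of the arrays of a numbered pair from their group means correlated at 0.06 to 0.80, over 0.1 in 15 of 17 pairs. In CM pair 2 of MS this was below the highest correlation with a control of another number (0.063 against 0.079). In every other pair it was above, narrowly so for fibroblast pairs 2 (0.15 against 0.13) and 3 (0.073 against 0.044) of UV. The pairing therefore rests on the numbers in the titles. Controls were compared in a fit of the 17 control arrays in groups without a block. Tests were two-sided and adjusted by Benjamini-Hochberg over 8740 probe-sets, with 0.05 as threshold. Separate cultures are stated as independent experiments per stressor. The fits were tested on simulated data. Alternatives were the block (none, or random with statmod 1.5.0), fewer arrays, the scan and the array lot, the floor, the normalization, a filter on dim probe-sets, a threshold of 0.005 and each pair or control array left out.

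Every member probe-set is reported, but the values of members without a call are not printed for every comparison. Of the list of other genes, the 4 with the smallest adjusted p in a comparison are named. Further called genes of that list were named after their values were seen. The members, gene lists, markers and tests were chosen with earlier results of these data known.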

Additional observations from a re-analysis of the deposited data

Results flagged for a closer look

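The change after UV differed between the CM-enriched fractions and the fibroblasts in a direct test for 3 probe-sets. None of the 3 passed without the replicate block or with a random one, and the pairs behind the block are inferred. The call held in 10 of 13 alternatives for Plaur, 6 for Mmp14 and 5 for Timp1. For Plaur the difference was -1.70 on the log2 scale, with a rise in 3 of 3 fibroblast pairs and changes of -0.12 and 0.37 in the 2 pairs of the fractions. For Mmp14 it was -0.65, with a fall in both pairs of the fractions and smaller falls in 3 of 3 fibroblast pairs. For the brighter probe-set of Timp1 it was -0.57, with rises in all 5 pairs, and the dimmer probe-set did not pass (limma adjusted p = 0.0579). The groups hold 2 or 3 arrays, too few for a test of single arrays that stand apart.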

How the results depend on the processing

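Of 1892 recomputed member results, 1785 kept their call or lack of one, 85 lost a call, 21 gained one and 1 reversed: Timp1 (brighter probe-set) between the controls of IR, where the difference was -0.34 to 0.31 with single control arrays left out, the positive value being that without FB control 3. The counts of called members stayed within 1.5 times in 155 of 172 recomputations. Without the replicate block, 3 in place of 5 members were called in fibroblasts after UV, and 0 in place of 3 in the difference after UV, where a random replicate block also gave 0. Fitting only the arrays of a comparison gave 0 calls in the fractions after IR and after UV and in the difference after UV, and 2 in fibroblasts after UV, with fewer residual degrees of freedom. Without quantile normalization the fractions after UV had 5 calls. At an adjusted p of 0.005, 3 remained significant in fibroblasts after UV, 1 in the difference after UV and 1 between the controls of MS. With a replicate block across the populations, 3 in place of 7 were called between the controls of MS. With 1 pair or control array left out, the counts ranged from 0 to 1 in fibroblasts after IR, from 3 to 4 in fibroblasts after UV and from 3 to 6 between the controls of MS. Calls changed elsewhere too. Between the controls of IR, Mmp9, Plaur and Timp1 were gained without FB control 3. In the fractions after UV, Plau was gained and Timp3 lost without pair 2. In the difference after UV, Mmp14 and Timp1 could be lost and Timp3 or Plau gained. Between the controls of UV, Plaur could be lost and Plau gained. Over the 3 stressors, Timp1 calls changed.

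Intensities near the floor limit Mmp9 and the dimmer probe-set of Mmp2, and the 2 UV controls of the fractions limit every result there. The cause of the changed calls was otherwise not tested. Values of a probe-set cannot be set against those of another, and RNA levels do not give protein or enzyme activity.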
